A study of Mus musculus with 11 samples.

Results

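Members of the chemoattractant receptor family were followed in macrophages sorted from mouse mammary tumours. The 7 genes, Ccr2, Cx3cr1, Ccr1, Cxcr4, Ccrl2, Cmklr1 and C5ar1, were chosen by name and were all found among the 17475 genes of the expression table. None was chosen by its values, but the choice was made with earlier results of these data known.

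The 11 libraries came from tumours of 6 female mice on a background backcrossed to B6, and all mice carried PyMT, the polyoma middle T oncogene that drives mammary tumours. MYC mice additionally carried S100a8-cre and Rosa26-LSL-MYC, a MYC transgene that Cre switches on, whereas control mice carried PyMT without these alleles. Mice of both genotypes were lethally irradiated at 7 weeks of age and received wild-type B6 marrow cells. They were put on a low protein diet 2 weeks later and kept on it for 6 weeks, so no library measures the effect of the diet. Cells derived from the marrow graft are of donor genotype in both groups, and the share of macrophages left from the host was not measured. The labels do not say in which cells Cre had acted. From live CD45+ cells negative for SiglecF, Ly6G, B220 and Ly6C, tumour-associated macrophages (TAMs) were gated as F4/80+ Vcam+ and mammary tissue macrophages (MTMs) as F4/80+ Vcam- FOLR2+. There were 3 MYC TAM libraries (mice 2, 4 and 6), 2 MYC MTM libraries (mice 2 and 4), 3 control TAM libraries and 3 control MTM libraries (mice 1, 3 and 5 for each).

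Chemoattractant receptors sit in the plasma membrane, couple mostly to Gi proteins, and steer leukocytes along gradients of chemokines, complement fragments or chemerin. Ccr2 carries classical monocytes out of the marrow and into inflamed tissue and tumours, and its RNA is normally lost as monocytes become macrophages, while Cx3cr1, the fractalkine receptor, marks patrolling monocytes and many resident macrophages. Ccr1 binds inflammatory CC chemokines, Cxcr4 binds Cxcl12, C5ar1 binds the complement fragment C5a, Cmklr1 is the signalling receptor for chemerin, and Ccrl2 binds chemerin without signalling and presents it to neighbouring cells.

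In the GENCODE annotation of GRCm38, 4 of the 7 genes lie on chromosome 9. These are Ccr2 (124101950 to 124113557, plus strand), Ccr1 (123962124 to 123968692, minus strand), Cx3cr1 (119901616 to 120069879, minus strand) and Ccrl2 (111054486 to 111057519, minus strand). Cxcr4 lies on chromosome 1 (128588199 to 128592293), Cmklr1 on chromosome 5 (113612354 to 113650426) and C5ar1 on chromosome 7 (16246743 to 16259540), each on the minus strand. The annotated span of Cx3cr1 takes in other genes and that of Cmklr1 an antisense gene, and whether the authors' counting used strand is not given in the sources used here, so reads of such neighbours cannot be told apart.

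The 250 bases before the start site are shown for the genes whose RNA differed most between groups, so that the 2 that were lower in MYC TAMs (Cx3cr1, Ccr1) can be read beside the 2 that were higher there (Ccrl2, Cxcr4) and beside Ccr2. The sequences are from RefSeq (GRCm38.p6), read 5′ to 3′ on the strand of the gene, and a window was found for all 7 genes. For Ccrl2, which has several start sites, the window of the most upstream start is given. Capitals mark matches to the motifs searched. The windows are chr9:120068297-120068546 for Cx3cr1, chr9:123968693-123968942 for Ccr1, chr9:111057519-111057768 for Ccrl2 and chr1:128592300-128592549 for Cxcr4, all on the minus strand, and chr9:124101933-124102182 on the plus strand for Ccr2.
Cx3cr1: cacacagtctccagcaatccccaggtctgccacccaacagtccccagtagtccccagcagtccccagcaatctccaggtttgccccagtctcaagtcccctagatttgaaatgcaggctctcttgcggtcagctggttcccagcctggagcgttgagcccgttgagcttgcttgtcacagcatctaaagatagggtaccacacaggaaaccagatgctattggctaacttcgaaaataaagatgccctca
Ccr1: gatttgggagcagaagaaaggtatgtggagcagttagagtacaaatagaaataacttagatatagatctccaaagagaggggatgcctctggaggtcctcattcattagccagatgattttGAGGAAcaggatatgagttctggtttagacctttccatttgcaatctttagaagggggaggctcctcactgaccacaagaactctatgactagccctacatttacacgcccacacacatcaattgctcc
Ccrl2: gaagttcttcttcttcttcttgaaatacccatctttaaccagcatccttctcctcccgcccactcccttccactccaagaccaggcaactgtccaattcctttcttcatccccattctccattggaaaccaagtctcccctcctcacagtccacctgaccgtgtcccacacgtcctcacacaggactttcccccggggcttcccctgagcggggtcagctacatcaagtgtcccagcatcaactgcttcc
Cxcr4: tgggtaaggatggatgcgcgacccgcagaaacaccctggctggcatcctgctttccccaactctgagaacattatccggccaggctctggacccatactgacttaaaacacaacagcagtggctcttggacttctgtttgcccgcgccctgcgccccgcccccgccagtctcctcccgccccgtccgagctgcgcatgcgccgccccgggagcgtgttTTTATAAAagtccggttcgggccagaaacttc
Ccr2: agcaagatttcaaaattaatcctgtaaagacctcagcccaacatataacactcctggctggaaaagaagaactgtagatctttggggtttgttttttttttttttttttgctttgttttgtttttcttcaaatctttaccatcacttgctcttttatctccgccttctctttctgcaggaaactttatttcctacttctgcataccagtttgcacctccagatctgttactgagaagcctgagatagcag

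Motifs were searched on both strands in windows from 250 bases before to 50 bases after each start. They were CACGTG, the E-box that MYC and related factors bind and that reads alike on both strands, GAGGAA, the core bound by PU.1 and other ETS factors, and TATAAA, the TATA box. Over 32544 promoter windows of the same length, CACGTG occurred in 7.17%, GAGGAA in 28.1% and TATAAA in 13.6%. Cxcr4 held TATAAA at -32 and -30 from the start, on opposite strands and overlapping each other. Ccr1 held GAGGAA at -129. Among the genes not shown, Cmklr1 held CACGTG at -145 and GAGGAA at -98. These letters were not in the windows of Cx3cr1, Ccr2, Ccrl2 or C5ar1. The matches are descriptions of sequence, not of bound sites.

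All levels below are the deposited values, which behave as the log2 of 1 plus a read number scaled for depth and gene length. The length used is not given, so levels can be compared between genes only roughly. The worth of 1 read was 1.4 (Cx3cr1), 1.34 (Ccr2) and 1.16 (Ccrl2) times that from the annotated exon length, and 0.996 to 0.997 times for the other receptors. Differences are log2 differences ± SE from limma, fitted over all genes and libraries, and a gene is said to have passed, risen or fallen only where its Benjamini-Hochberg adjusted p over all genes was below 0.05. A log2 difference on this scale understates the fold change of genes with few reads. An estimated 32900000 to 43700000 reads per library fell in genes. The MYC TAM library of mouse 4 stood apart, with 581 genes at the lowest value they shared with another library, against 2072 to 3522 in the other libraries, and results were repeated without it. The row of the mouse gene Myc was at 2.16, 1.92 and 1.78 in MYC TAMs against 2.66, 3.18 and 3.11 in control TAMs, and the labels do not say whether RNA of the transgene is counted there, so it cannot check the genotype. RNA of a gate gene went against the gate in MYC mice, where Vcam1 was at 0.96 to 2.82 in MYC TAMs and 2.31 to 2.32 in MYC MTMs, against 7.64 to 8.60 in control TAMs and 5.25 to 6.86 in control MTMs. Vcam1 thus did not separate the TAM gate from the MTM gate in MYC mice, and it was low in all MYC TAM libraries. It was at 0.96 and 1.61 in MYC TAMs of mice 2 and 4, below both MYC MTM libraries, and at 2.82 in mouse 6, above them. Folr2 was at 1.07, 1.44 and 3.62 in MYC TAMs of mice 2, 4 and 6, and at 8.07 to 8.45 in MYC MTMs. RNA levels of Emr1 (F4/80) and Csf1r, which define macrophages, were present in every library but were 3.51-fold and 5.94-fold lower in MYC than in control TAMs. Of 9 macrophage markers measured, 5 were lower and 1, Cd68, was higher in that comparison, where 12% and 3.89% of all genes were. In bulk libraries, fewer cells of a type and less RNA per cell cannot be told apart.

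Among the 7 receptors, the TAMs of MYC tumours carried the most altered set. Against control TAMs, Cx3cr1 and Ccr1 fell and Ccrl2 and Cxcr4 rose, so that 4 of 7 passed (2 lower, 2 higher), where 15.9% of all genes passed (12% lower, 3.89% higher). No receptor's libraries overlapped between these groups (2 higher, 5 lower), where 30.1% of all genes did not overlap (8.03% higher, 22.1% lower). The count was 2, Cx3cr1 and Ccr1, without the control TAM library of mouse 3, and likewise 2 when the fit held only the groups compared. With each library centred on its median, the median difference over all genes was 0.19 rather than -0.02 here, and 3516 genes passed as higher and 1513 as lower, against 680 and 2098 without centring, while quantile normalisation gave 1107 higher and 1553 lower. The 4 receptors passed in the same direction under centring, at -4.35 for Cx3cr1, -2.21 for Ccr1, 2.14 for Ccrl2 and 1.29 for Cxcr4.

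Between TAMs and MTMs of MYC tumours, Ccr2, Cx3cr1 and Ccr1 fell, 3 of 7 (all lower), where 4.49% of all genes passed (3.82% lower). The libraries of 5 receptors did not overlap, all lower, against 30.4% of all genes (23.5% lower, 6.82% higher). With the mouse as a fixed block, 476 rather than 784 genes passed, and median centring gave 207 higher and 372 lower against 116 and 668 without it. Quantile normalisation gave 171 higher and 400 lower. The 3 receptors passed under the block, whereas Ccr1 did not under centring (adjusted p = 0.0544) or quantile normalisation (0.102). In control tumours only Ccr2 fell in TAMs, 1 of 7, where 2.37% of all genes passed (1.63% lower), with 255 rather than 414 genes under the mouse block. Of the 7, the libraries of 1, Ccr2, did not overlap, against 18.9% of all genes (12% lower, 6.9% higher).

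Between MYC and control MTMs, 0 of 7 receptors passed in limma, where 0.618% of all genes passed. At an unadjusted p below 0.05 the count was 4 of 7, against 10.1% of all genes. No other tool was run. The libraries of 4 receptors did not overlap (2 higher, 2 lower), against 31.2% of all genes (11.1% higher, 20.1% lower). The test of whether the TAM to MTM difference itself differed between genotypes (the difference of differences) was passed by Cx3cr1, 1 of 7 and lower, where 1.24% of all genes passed (0.996% lower), and by 31 rather than 216 genes under the mouse block, Cx3cr1 among them. The median log2 difference of the 7 receptors was -0.53 between MYC and control TAMs, -1.03 between MYC TAMs and MYC MTMs, -0.27 between MYC and control MTMs and -0.16 between control TAMs and control MTMs. The comparisons share groups, so they are not independent of one another. The medians over all genes were -0.02, -0.01, -0.02 and -0.00 in the same comparisons.

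**Figure D1:**
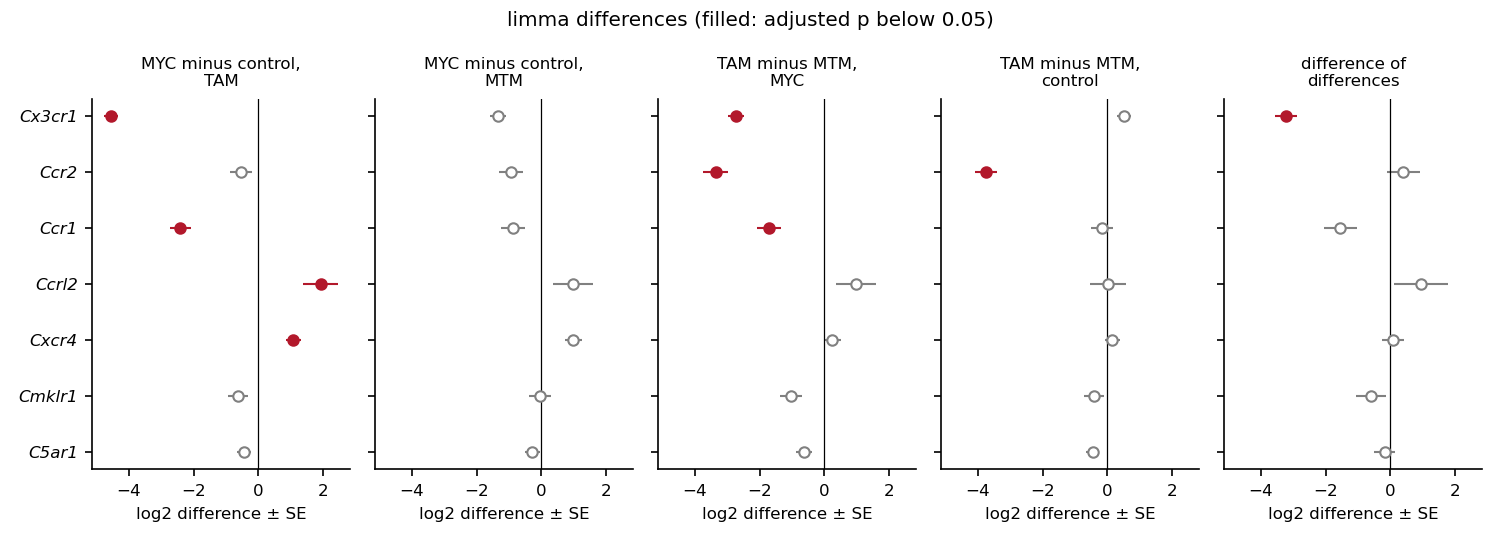
Log2 differences (points) with standard errors (bars) from limma for each receptor in each comparison, filled where the adjusted p was below 0.05. Cx3cr1 lies at -4.55 between MYC and control TAMs, and Ccr2 lies at -3.36 and -3.76 between TAMs and MTMs of MYC and control tumours.

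**Figure D2:**
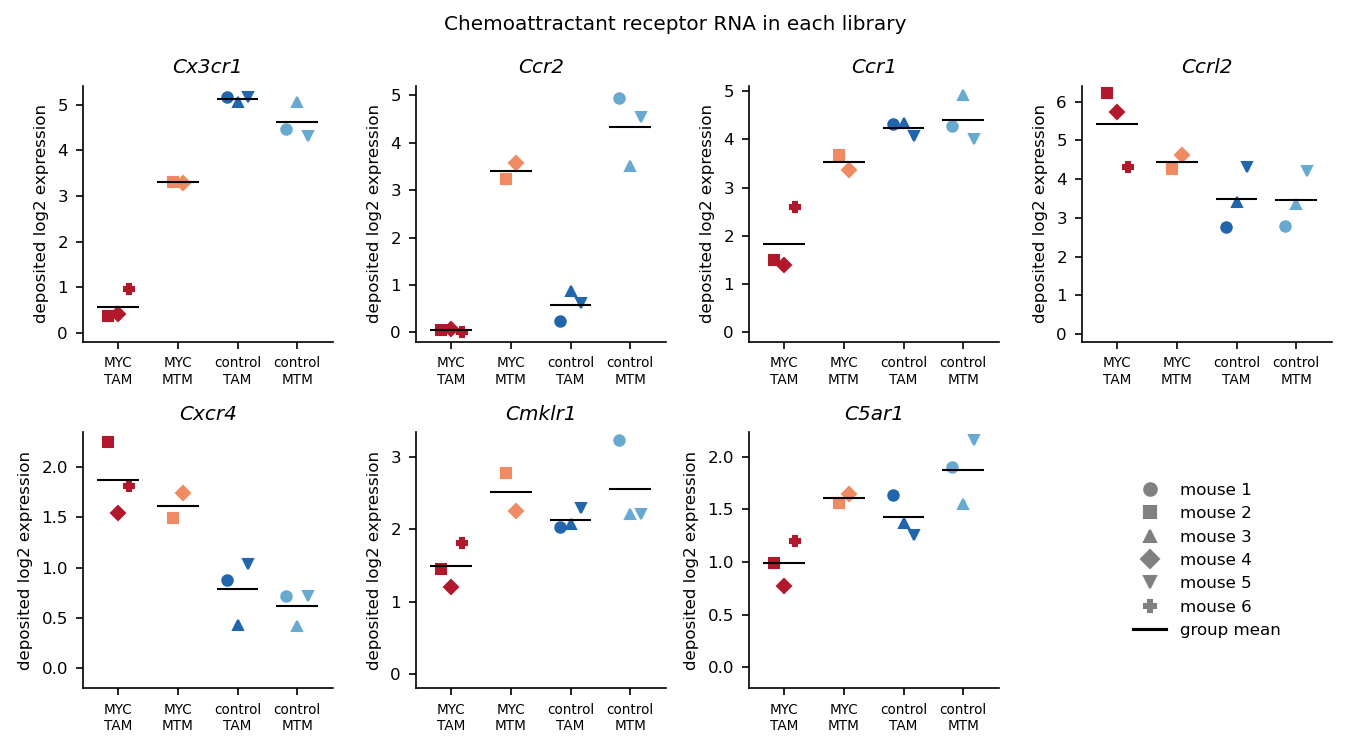
Deposited log2 expression (vertical axis) of the 7 receptors in every library, by group, with the symbol giving the mouse and the line the group mean. Cx3cr1 in MYC TAMs (0.36 to 0.95) lies under every other library, and Ccrl2 in MYC TAMs reaches 6.23.

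Ccr2 was lower in TAMs than in MTMs of both genotypes, and it was lowest in MYC TAMs. MYC TAMs of mice 2, 4 and 6 had levels of 0.05, 0.08 and 0.01, and MYC MTMs of mice 2 and 4 had levels of 3.24 and 3.57. In control libraries of mice 1, 3 and 5 it was at 0.24, 0.88 and 0.61 in TAMs and at 4.95, 3.51 and 4.55 in MTMs. Every TAM library lay below every MTM library, and every MYC TAM library lay below every control TAM library, whereas MYC and control MTMs overlapped. Ccr2 was lower in TAMs than in MTMs by a log2 difference of -3.36 ± 0.38 in MYC mice (adjusted p = 0.00161) and -3.76 ± 0.34 in control mice (adjusted p = 0.000506), and both calls held in all 23 alternatives. In each of the 5 mice with both cell types the TAM library was the lower, by -3.20 and -3.49 in MYC mice 2 and 4 and by -4.71, -2.63 and -3.94 in control mice 1, 3 and 5. The difference of differences did not pass, and its direction depended on the number added before the logarithm, at 0.40 ± 0.51 as deposited (adjusted p = 0.8) and -1.08 ± 0.75 with 0.1 in place of 1 (adjusted p = 0.69). By depth-scaled reads TAMs were 358-fold below MTMs in MYC mice (95% exact binomial interval 205 to 694) and 39.8-fold below them in control mice (35 to 45.6), counting error only.

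Ccr2 did not pass between MYC and control TAMs (-0.53 ± 0.34, adjusted p = 0.37), yet on this scale values near 0 are compressed. The recovered read numbers were 5, 7 and 0 in MYC TAMs and 26, 128 and 77 in control TAMs, so few reads separate these libraries. Summed and scaled for depth, MYC TAMs held 12 reads against 231, or 5.23% of the control TAM level (95% exact binomial interval 2.66 to 9.31%, counting error only). With 0.1 in place of 1 added before the logarithm, the difference was -2.07 and passed (adjusted p = 0.0164). This was the only 1 of 22 alternatives in which it passed (adjusted p up to 0.751). MTMs held 1288 and 1659 reads in MYC mice and 4377, 1602 and 3194 in control mice, and the difference between them was -0.93 ± 0.38 (adjusted p = 0.434).

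Monocyte markers had lower sums in TAMs than in MTMs of both genotypes, as Ccr2 had lower levels. All 13 of 13 listed markers were measured, none was without reads in a whole group, and their summed level (deposited values turned back to the linear scale) was 42.4 to 104 in MYC TAMs, 462 to 568 in MYC MTMs, 53.2 to 135 in control TAMs and 294 to 1790 in control MTMs. Of the 13, 6 fell in TAMs against MTMs of MYC mice and 3 in control mice, where 3.82% and 1.63% of all genes fell. Between MYC and control MTMs none of the 13 passed. Their median difference there was 0.15, while that of Ccr2 was -0.93. A sum gives most weight to the most abundant markers. Dendritic cell markers, 12 of 12 measured, also had lower sums in TAMs than in MTMs, at 1.26 to 3.33 against 10.8 to 21.3 in MYC mice and 15.6 to 17.7 against 36.1 to 88.3 in control mice. Of the 12, 4 fell and none rose in MYC mice, while 3 fell and 1 rose in control mice. Over all genes 0.664% and 0.744% rose in these comparisons. The median differences of the 12 were -0.07 in MYC mice and -0.11 in control mice. Ccr7 and Ccr9 were without reads in MYC TAMs, and Ccr7 in MYC MTMs. The part of these cells in the result was not tested.

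Cx3cr1 had the largest difference between genotypes of the 7. Its level was 0.36, 0.41 and 0.95 in TAMs and 3.30 and 3.29 in MTMs of MYC mice, against 5.17, 5.06 and 5.16 in control TAMs and 4.47, 5.07 and 4.32 in control MTMs. MYC TAMs were lowest, MYC MTMs were next and overlapped with no other group, and the control libraries of the macrophage types overlapped at the top. In TAMs the MYC minus control difference was -4.55 ± 0.22 (adjusted p = 5.29e-06), the lower group holding 29, 26 and 95 reads against 3239, 3146 and 3260. Scaled for depth, that is 63.9-fold fewer reads (95% exact binomial interval 54.4 to 75.6, counting error only). Against MTMs it was -2.72 ± 0.25 in MYC mice (adjusted p = 0.000707) but 0.51 ± 0.22 in control mice (adjusted p = 0.416). The difference of differences was -3.23 ± 0.34 (adjusted p = 0.00551). All alternatives kept the calls between MYC and control TAMs, between TAMs and MTMs of MYC mice, and of the difference of differences.

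In MTMs the 2 MYC libraries of Cx3cr1 also lay below the 3 control libraries, but the difference of -1.33 ± 0.25 missed the threshold (adjusted p = 0.0574). It passed without the MYC TAM library of mouse 6 (adjusted p = 0.0334), which touches it only through the shared estimate of the spread, and under 3 other alternatives (adjusted p = 0.00594 to 0.037). General macrophage markers changed in both directions in MYC against control TAMs. Of 10 listed 9 were measured, 5 lower and 1 higher, where 12% of all genes were lower and 3.89% higher. Their summed level was 4630 to 5545 in MYC TAMs against 7697 to 10735 in control TAMs. Csf1r, the receptor for the growth factor of macrophages, had a log2 difference of -2.57 ± 0.20 (adjusted p = 6.34e-05). The marker that rose was Cd68, a lysosomal glycoprotein of macrophages, by 1.95 ± 0.15 (adjusted p = 6.61e-05), named after its value was seen. The part of these genes in the result was not tested.

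**Figure D3:**
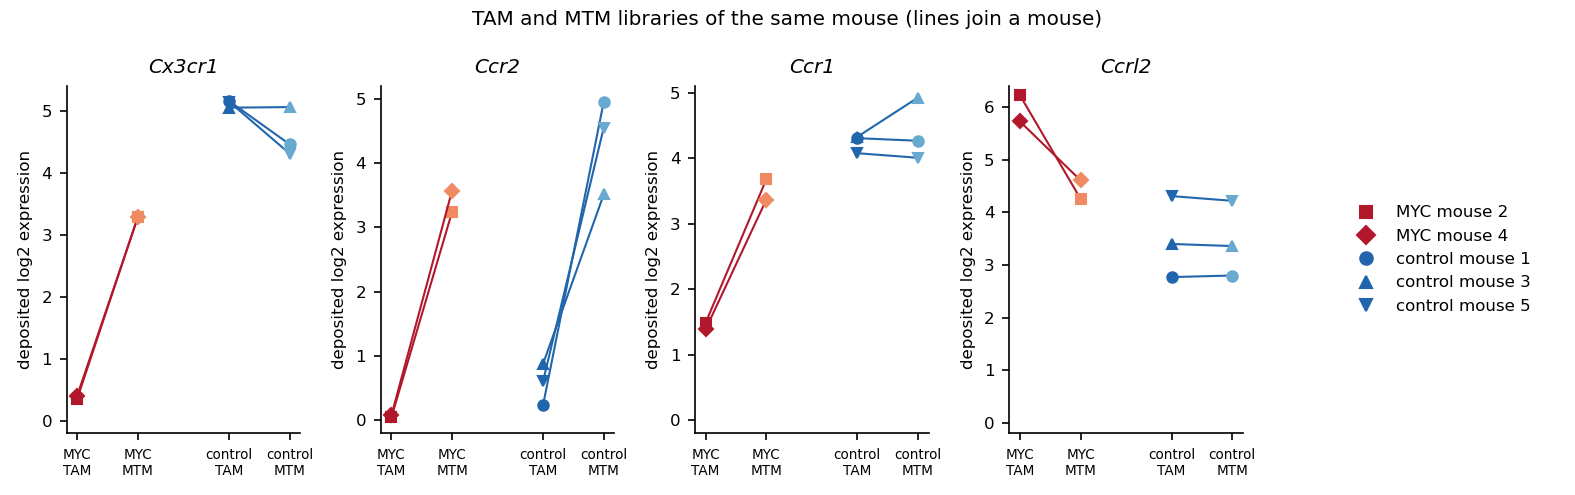
Deposited log2 expression (vertical axis) of Cx3cr1, Ccr2, Ccr1 and Ccrl2 in the TAM and MTM libraries of the 5 mice that gave both, joined by a line per mouse. Lines of Ccr2 run the same way in all 5 mice, while those of Cx3cr1 and Ccr1 are steep in MYC mice 2 and 4 only.

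Ccr1 was lower in the TAMs of MYC tumours than in the other groups. Its level was 1.49, 1.39 and 2.59 in TAMs and 3.68 and 3.37 in MTMs of MYC mice, against 4.31, 4.33 and 4.08 in control TAMs and 4.27, 4.93 and 4.01 in control MTMs. No MYC TAM library reached any other group, and both MYC MTM libraries lay below all control libraries. Ccr1 fell by 2.41 on the log2 scale in MYC against control TAMs (SE 0.33, adjusted p = 0.00136), in all 22 alternatives. Within MYC mice Ccr1 was lower in TAMs than in MTMs (-1.70 ± 0.37, adjusted p = 0.0349), a call lost in 12 of 23 alternatives. It was lost without the MYC TAM library of mouse 2 (adjusted p = 0.0956) or 4 (0.104), the MYC MTM library of mouse 2 (0.267) or 4 (0.152), the control TAM library of mouse 1 (0.0567), 3 (0.0575) or 5 (0.059), or the control MTM library of mouse 1 (0.0547). In control mice the difference was -0.16 ± 0.33 (adjusted p = 1). The difference of differences of -1.54 ± 0.50 did not pass (adjusted p = 0.244), but was -1.92 and passed without the MYC TAM library of mouse 6 (adjusted p = 0.0446), whose Ccr1 level was the highest of its group. In MTMs the MYC minus control difference was -0.88 ± 0.37 (adjusted p = 0.465).

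Cxcr4 was higher in MYC than in control macrophages of either type. It was at 2.25, 1.54 and 1.81 in MYC TAMs against 0.88, 0.43 and 1.04 in control TAMs. In MTMs it was at 1.49 and 1.74 in MYC mice against 0.72, 0.42 and 0.72 in control mice. No MYC library overlapped with a control library, while TAMs and MTMs of a genotype did overlap. The rise in TAMs was 1.08 ± 0.23 (adjusted p = 0.0122), and it missed the threshold without the control TAM library of mouse 3 (0.90 ± 0.24, adjusted p = 0.0509), the lowest of its group. In MTMs the difference was of like size, 0.99 ± 0.26, but did not pass (adjusted p = 0.165). TAMs minus MTMs gave 0.25 ± 0.26 in MYC mice (adjusted p = 0.654) and 0.16 ± 0.23 in control mice (adjusted p = 0.988), and the difference of differences was 0.09 ± 0.35 (adjusted p = 0.929). Reads were few, 85 to 215 in MYC TAMs and 19 to 56 in control TAMs. Neutrophils carry Cxcr4, C5ar1 and Ccrl2, and their markers, 10 of 12 measured, summed to 75.5 to 147 in MYC TAMs against 174 to 294 in control TAMs. The sum was thus lower, yet 3 of 10 markers were higher and 1 lower, where 3.89% of all genes were higher and 12% lower. Cxcr2, a defining marker, had no read in control TAMs and was at 0.17, 0.28 and 0.09 in MYC TAMs of mice 2, 4 and 6. The part of neutrophils in the results on these receptors was not tested.

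Of the chemerin receptors, Ccrl2 rose in MYC TAMs and Cmklr1 did not pass in any comparison. Levels of Ccrl2 were 6.23, 5.73 and 4.32 in TAMs and 4.26 and 4.61 in MTMs of MYC mice, against 2.77, 3.40 and 4.31 in control TAMs and 2.80, 3.36 and 4.22 in control MTMs. The lowest MYC TAM library (4.32, mouse 6) and the highest control TAM library (4.31, mouse 5) all but met, whereas MYC TAMs and MYC MTMs overlapped, as did the control groups. The difference of 1.93 ± 0.55 between MYC and control TAMs passed (adjusted p = 0.0427) and was lost in 11 of 22 alternatives. It was lost without the MYC TAM library of mouse 2 (adjusted p = 0.137) or 4 (0.141), either MYC MTM library (0.0658), the control TAM library of mouse 1 (0.129) or 3 (0.124), or the control MTM library of mouse 3 (0.0607). Ccrl2 differed between TAMs and MTMs of MYC mice by 0.99 ± 0.62 (adjusted p = 0.515), and in a fit with a fixed mouse block, in which mouse 6 without an MTM library adds nothing, by 1.54 ± 0.23 (adjusted p = 0.0366). In control mice the TAM to MTM difference was 0.03 ± 0.55 (adjusted p = 1). For MTMs of MYC against control mice it was 0.98 ± 0.62 (adjusted p = 0.697), and the difference of differences was 0.96 ± 0.83 (adjusted p = 0.787).

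Levels of Cmklr1 were 1.45, 1.20 and 1.81 in TAMs and 2.78 and 2.25 in MTMs of MYC mice, against 2.03, 2.07 and 2.30 in control TAMs and 3.24, 2.21 and 2.21 in control MTMs. MYC TAMs were the lowest group and overlapped with no other, and the other 3 groups overlapped. The differences were -0.64 ± 0.31 between MYC and control TAMs (adjusted p = 0.213) and -1.03 ± 0.34 between TAMs and MTMs of MYC mice (adjusted p = 0.151). In control mice TAMs minus MTMs gave -0.42 ± 0.31 (adjusted p = 0.758), MYC minus control MTMs gave -0.04 ± 0.34 (adjusted p = 1), and the difference of differences was -0.60 ± 0.46 (adjusted p = 0.763).

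C5ar1 did not pass in any comparison. Its level was 0.99, 0.77 and 1.20 in TAMs and 1.56 and 1.65 in MTMs of MYC mice, against 1.64, 1.37 and 1.26 in control TAMs and 1.90, 1.55 and 2.16 in control MTMs. MYC TAMs again lay below all other libraries. The difference from control TAMs was -0.44 ± 0.21 (adjusted p = 0.22), that from MYC MTMs was -0.62 ± 0.24 (adjusted p = 0.213), and control TAMs differed from control MTMs by -0.45 ± 0.21 (adjusted p = 0.464). MYC MTMs differed from control MTMs by -0.27 ± 0.24 (adjusted p = 0.855), and the difference of differences was -0.17 ± 0.32 (adjusted p = 0.854).

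The order of the receptors by level, on the length-scaled log2 scale, was not the same in every group. Close places within a group depend on the gene lengths used, which are not given. In MYC TAMs Ccrl2 led with a mean of 5.42 ± 0.99 (SD, n = 3), above Cxcr4 at 1.86 ± 0.36, Ccr1 at 1.83 ± 0.67 and Cmklr1 at 1.49 ± 0.31. C5ar1 at 0.99 ± 0.21, Cx3cr1 at 0.58 ± 0.33 and Ccr2 at 0.05 ± 0.03 were the lowest there. In MYC MTMs the library values of Ccrl2 (4.26 and 4.61) were the highest, those of Ccr1, Ccr2 and Cx3cr1 overlapped between 3.24 and 3.68, and the other 3 lay between 1.49 and 2.78. In control TAMs Cx3cr1 was first at 5.13 ± 0.06 (SD, n = 3), then Ccr1 at 4.24 ± 0.14 and Ccrl2 at 3.49 ± 0.77, with Ccr2 at 0.57 ± 0.32 last. In control MTMs Cx3cr1 at 4.62 ± 0.40, Ccr1 at 4.40 ± 0.47 and Ccr2 at 4.34 ± 0.74 overlapped, above Ccrl2 at 3.46 ± 0.71. Ccrl2 in the MYC TAM library of mouse 2 was above 95.1% of all genes of that library, and Cx3cr1 in the control TAM library of mouse 1 was above 90.8%.

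The genes whose levels followed each receptor most closely were found by the root mean square difference over the 11 libraries, after centring each gene, among 2310 named genes with a mean of 2 or more and an SD of 0.5 or more. For Cx3cr1 they were Siglece (0.32), Ighm (0.40) and Slco2b1 (0.44). Siglece averaged 1.66 in MYC TAMs, 4.39 in MYC MTMs, 6.73 in control TAMs and 5.70 in control MTMs, the same order as Cx3cr1. For Ccr2 they were Serpinb1a (0.36), Alox5 (0.42) and Ccl24 (0.45). Serpinb1a averaged 0.25 in MYC TAMs and 4.39 in MYC MTMs, and 0.80 in control TAMs and 4.69 in control MTMs, low wherever Ccr2 was low. For Ccr1 they were Dck (0.25), Bco2 (0.27) and Dusp6 (0.33), and for Ccrl2 they were Osm (0.25), H2-K2 (0.35) and Pim3 (0.39). Osm, the gene of the cytokine oncostatin M, averaged 5.52 in MYC TAMs, 4.47 in MYC MTMs, 4.06 in control TAMs and 3.56 in control MTMs. For Cxcr4 they were Grina (0.19), Aprt (0.21) and Trem2 (0.25), for Cmklr1 they were Camk2g (0.20), Ehd4 and Vps13b (0.24 each), and for C5ar1 they were Map3k11 (0.21), C1rl and Dennd1c (0.26 each). The SD of the receptor itself was 1.98 for Ccr2, 1.95 for Cx3cr1, 1.18 for Ccr1 and 1.10 for Ccrl2. It was 0.61 for Cxcr4, 0.56 for Cmklr1 and 0.40 for C5ar1, so a small difference does not mean closer following. Genes with an SD as low as that of C5ar1 were not searched. All of these share the same libraries and depths with the receptor they follow. They were picked for their closeness to it in these same libraries, so their likeness in group order follows from the choice.

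Ligands of the receptors were all measured, 15 of 15, and those that passed were lower in TAMs or in MYC TAMs. Against control TAMs, 4 fell in MYC TAMs and none rose, where 12% of all genes fell and 3.89% rose. Ccl12, a mouse ligand of Ccr2, was at 4.58, 2.96 and 4.98 in MYC TAMs against 7.58, 8.07 and 7.49 in control TAMs, without overlap (-3.54 ± 0.60, adjusted p = 0.00402). Ccl5, a ligand of Ccr1, was at 3.25, 2.04 and 1.04 in MYC TAMs against 5.64, 4.04 and 4.96 in control TAMs (-2.77 ± 0.57, adjusted p = 0.00959). Ccl9, another Ccr1 ligand, differed by -2.12 ± 0.39 (adjusted p = 0.00582). These 3 kept their calls when any single library was left out, though Ccl9 (adjusted p = 0.104) and Ccl5 (0.16) lost them when MYC TAMs of mice 4 and 6 were left out together. Cx3cl1, the gene of fractalkine and so of the Cx3cr1 ligand, was low throughout, at 0.30, 0.03 and 0.04 in MYC TAMs against 0.69, 1.38 and 0.63 in control TAMs (-0.77 ± 0.19, adjusted p = 0.0221). It was lost without the MYC TAM library of mouse 4 (adjusted p = 0.0775) or 6 (0.0566). T and NK cells also make Ccl5, and their markers, 15 of 15 measured, summed to 3.74 to 9.1 in MYC TAMs, with Cd3e and Gzma without reads, against 70.4 to 165 in control TAMs, with 10 of 15 lower. Epithelial markers, 10 of 12 measured, summed to 33.9 to 356 in MYC TAMs against 432 to 1019 in control TAMs, with 2 of 10 lower, where 12% of all genes were lower. The part of these cells in the result was not tested.

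The monocyte chemoattractant genes Ccl2, Ccl7 and Ccl8 fell in TAMs against MTMs of both genotypes. Ccl12, also a Ccr2 ligand, did not pass, at -0.68 ± 0.60 in control mice (adjusted p = 0.85) and -2.72 ± 0.67 in MYC mice (adjusted p = 0.0556). Ccl2 and Ccl7 bind Ccr2, while mouse Ccl8 acts mainly through Ccr8. In control mice 3 fell and none rose, where 1.63% of all genes fell and 0.744% rose. The 3 were Ccl8 (-5.20 ± 0.63, adjusted p = 0.00222), Ccl7 (-3.43 ± 0.55, adjusted p = 0.0112) and Ccl2 (-2.31 ± 0.46, adjusted p = 0.0328). Ccl2, the main Ccr2 ligand, was at 3.17, 4.21 and 4.60 in control TAMs against 5.65, 6.25 and 7.01 in control MTMs. In MYC mice, where 3.82% of all genes fell, the same 3 and Ccl9 fell, Ccl9 by the most (-3.71 ± 0.43, adjusted p = 0.00185). Ccl9 was at 3.50, 2.00 and 2.60 in MYC TAMs against 6.48 and 6.34 in MYC MTMs. Ccl2 was at 4.08, 2.93 and 3.95 in MYC TAMs against 6.14 and 5.70 in MYC MTMs (-2.27 ± 0.52, adjusted p = 0.0401). Ccl7 differed by -3.28 ± 0.62 (adjusted p = 0.0183) and Ccl8 by -3.44 ± 0.70 (adjusted p = 0.0255) in MYC mice. Each of Ccl2, Ccl7 and Ccl8 lost its call in MYC mice without the MYC TAM library of mouse 2 or 4 or the MYC MTM library of mouse 2 or 4 (adjusted p = 0.0518 to 0.289), and Ccl2 also without the control TAM (0.0626) or control MTM (0.0594) library of mouse 3. In control mice, Ccl7 lost its call without the control MTM library of mouse 5 (adjusted p = 0.0565), and Ccl2 without any of 7 libraries (adjusted p = 0.0502 to 0.124), which were MYC TAM 4, MYC MTM 2 and 4, control TAM 1 and 3 and control MTM 3 and 5, numbered by mouse. No ligand passed between MYC and control MTMs or in the difference of differences by limma.

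**Figure D4:**
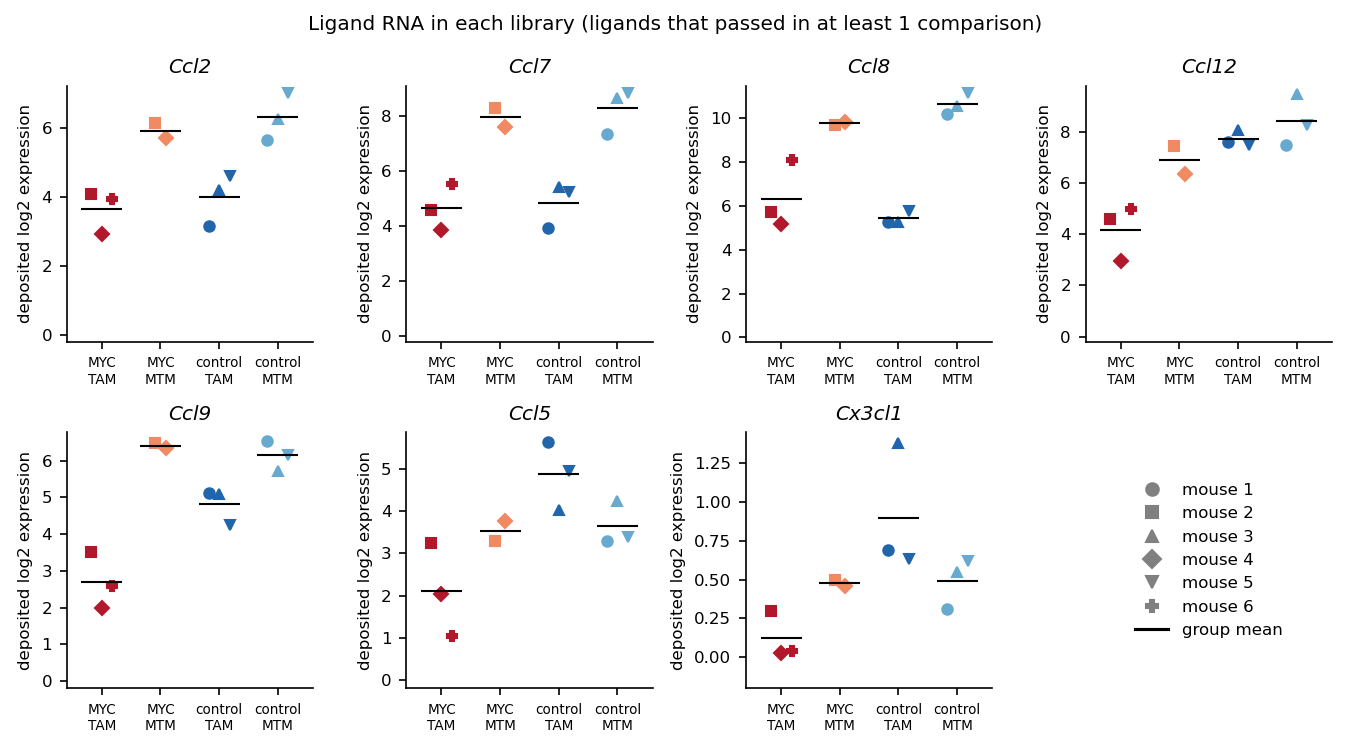
Deposited log2 expression (vertical axis) of the 7 ligand genes that passed in at least 1 comparison, in every library, by group, with the symbol giving the mouse and the line the group mean. Ccl2, Ccl7 and Ccl8 are lower in TAMs than in MTMs of either genotype, and Ccl12 is at 2.96 to 4.98 in MYC TAMs.

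The ligands of Cxcr4 and of the chemerin and C5a receptors did not pass. Cxcl12 was at or below 0.30 in every library. Mif, which also binds Cxcr4, was at 8.01 to 9.08 in MYC TAMs, 8.66 to 8.75 in MYC MTMs, 8.11 to 8.65 in control TAMs and 7.57 to 8.31 in control MTMs. Rarres2, the gene of chemerin, was at 1.14 to 1.44 in MYC TAMs against 0.20 to 0.88 in control TAMs, without overlap (0.77 ± 0.27, adjusted p = 0.0846). Hc, the gene of complement C5, was at 0.15 or below in every library. Ccl3 and Ccl4, abundant CC chemokines, were at 7.21 to 8.71 and 7.54 to 8.79 in MYC TAMs, against 7.27 to 8.61 and 8.76 to 10.10 in control TAMs.

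Of 14 other chemokine receptors 12 were measured. Between MYC and control TAMs 3 of 12 passed, where 15.9% of all genes passed, and no other comparison held one that passed by limma. The 3 were at levels under 0.50 in every library. Cxcr6 (-0.31 ± 0.07, adjusted p = 0.015) and Ccr7 (-0.20 ± 0.06, adjusted p = 0.043) fell, and Cxcr2, the neutrophil receptor, rose (0.16 ± 0.05, adjusted p = 0.049). Cxcr6 lost its call without the control TAM library of mouse 3 (adjusted p = 0.0539), Ccr7 without any of 8 libraries (0.0585 to 0.143) and Cxcr2 without any of 9 (0.0646 to 0.127), and Ccr7 changed sign with median centring (0.01). Ccr7 had no read in MYC TAMs and Cxcr2 none in control TAMs, so the size of these differences depends on the 1 added before the logarithm. Of 7 atypical receptors 5 were measured and 1 passed in that comparison, C5ar2, the other C5a receptor, which fell (-0.50 ± 0.10, adjusted p = 0.00936), but not with median centring (adjusted p = 0.134) or quantile normalisation (0.0779).

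Among 22 receptors for lipid, nucleotide and peptide attractants, 19 were measured, and MYC TAMs differed from control TAMs in 9, with 8 lower and 1 higher. Over all genes 12% were lower and 3.89% higher in that comparison. Gpr84, a receptor for medium-chain fatty acids, was at 0.19, 0.21 and 0.17 in MYC TAMs against 1.36, 1.52 and 1.52 in control TAMs (-1.28 ± 0.14, adjusted p = 0.000459). Gpr183, the oxysterol receptor, was at 0.58, 0.74 and 1.31 in MYC TAMs against 3.28, 2.88 and 3.13 in control TAMs (-2.22 ± 0.27, adjusted p = 0.000586). S1pr1, a receptor for sphingosine 1-phosphate, differed by -1.67 ± 0.21 (adjusted p = 0.000704) and Gpr35 by -1.25 ± 0.19 (adjusted p = 0.00223). P2ry14, the receptor for UDP-glucose, was the gene that rose, at 2.52, 2.33 and 2.02 in MYC TAMs against 0.66, 0.70 and 1.00 in control TAMs (1.50 ± 0.19, adjusted p = 0.000938). These 5 calls held in every alternative. The list's median difference was -0.30, against -0.02 over all genes.

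Between TAMs and MTMs, 5 of the 19 fell in MYC mice and 2 in control mice, where 3.82% and 1.63% of all genes fell, and none rose. In control mice the other gene was Fpr1 (-0.63 ± 0.12, adjusted p = 0.0258), lost with the mouse as a fixed block (0.115) and without any of 4 control libraries (0.068 to 0.104), TAM 1, 3 and 5 and MTM 5, numbered by mouse. Fpr1, the formyl peptide receptor, was at 0.10, 0.21 and 0.13 in MYC TAMs against 1.23 and 1.17 in MYC MTMs (-1.05 ± 0.13, adjusted p = 0.0028), a call that held in every alternative. Ltb4r1, the leukotriene B4 receptor, was at 0.29, 0.20 and 0.04 in MYC TAMs against 2.18 and 2.62 in MYC MTMs (-2.22 ± 0.41, adjusted p = 0.017), and at 0.38, 0.25 and 0.20 in control TAMs against 3.46, 1.73 and 2.83 in control MTMs (-2.40 ± 0.37, adjusted p = 0.00875). In MYC mice its call was lost with the mouse as a fixed block (adjusted p = 0.0651), and without the MYC TAM library of mouse 4 (0.0585) or the MYC MTM library of mouse 2 (0.0904) or 4 (0.152). Cysltr1, a receptor for cysteinyl leukotrienes, differed by -1.84 ± 0.26 in MYC mice (adjusted p = 0.00499), and lost its call without the MYC MTM library of mouse 2 (adjusted p = 0.0677).

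Of 14 enzymes that cut or shed the ligands, 12 were measured. In MYC against control TAMs, where 12% of all genes fell and 3.89% rose, 5 fell and none rose. The rest did not pass, among them Mmp9 (0.01 ± 0.27, adjusted p = 0.979). Mmp2, which trims chemokines, was at 1.58, 1.79 and 2.60 in MYC TAMs against 6.78, 6.20 and 6.80 in control TAMs (-4.60 ± 0.30, adjusted p = 2.65e-05). Dpp4, which removes the first residues of several chemokines, was at 0.01, 0.77 and 0.18 in MYC TAMs against 2.88, 3.45 and 3.13 in control TAMs (-2.84 ± 0.34, adjusted p = 0.000584), and Adam10, which sheds fractalkine from the membrane, differed by -1.49 ± 0.20 (adjusted p = 0.00113). In control mice, Mmp2 was higher in TAMs than in MTMs (2.09 ± 0.30, adjusted p = 0.00637) and Mmp9 was lower (-2.11 ± 0.27, adjusted p = 0.00336). The difference of differences of Mmp2 was -3.12 ± 0.46 (adjusted p = 0.0162), and it was lost with the mouse as a fixed block (0.0578) and without the MYC TAM library of mouse 4 (0.0507) or the MYC MTM library of mouse 2 (0.0886) or 4 (0.0911). The list's median difference was -0.35 between MYC and control TAMs.

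Downstream of the receptors, genes of Gi signalling and desensitisation (32 of 32 measured) moved in both directions in MYC TAMs, with 3 higher and 8 lower than in control TAMs and a median difference of -0.09. Over all genes 3.89% were higher and 12% lower in that comparison, with a median difference of -0.02. Rgs18, which switches off Gi proteins, was at 1.92, 2.41 and 2.93 in MYC TAMs against 0.10, 0.03 and 0.03 in control TAMs (2.37 ± 0.27, adjusted p = 0.000459). In control mice those TAM values stood against 4.94, 4.22 and 4.65 in control MTMs (-4.55 ± 0.27, adjusted p = 7.03e-05). The difference of differences of Rgs18 was 3.40 ± 0.40 (adjusted p = 0.00882), and it missed the threshold without the MYC MTM library of mouse 2 (adjusted p = 0.0588). Pik3cg, the catalytic subunit of PI3K gamma, fell in MYC TAMs (-1.19 ± 0.18, adjusted p = 0.00186), whereas Pik3r5, its regulatory subunit, rose (1.73 ± 0.28, adjusted p = 0.00336), a call lost when MYC TAMs of mice 4 and 6 were left out together (0.0809). Adrbk2, a receptor kinase of the GRK family, fell (-1.47 ± 0.23, adjusted p = 0.00243).

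Genes of the migration machinery (28 of 28 measured) were lower in MYC TAMs where they passed, 10 lower and none higher against control TAMs, with a median difference of -0.60. Over all genes 12% were lower and 3.89% higher in that comparison, with a median difference of -0.02. Elmo1, which works with DOCK proteins to activate Rac, was at 3.48, 3.58 and 3.81 in MYC TAMs against 5.00, 5.07 and 5.21 in control TAMs (-1.47 ± 0.14, adjusted p = 0.000191). Vav1, another activator of Rac, differed by -0.98 ± 0.12 (adjusted p = 0.00064). Both calls held in every alternative. Against MYC MTMs, 5 of the 28 fell in MYC TAMs and none rose, where 3.82% of all genes fell and 0.664% rose. Those that fell included Itgam, the CD11b integrin chain (-2.02 ± 0.30, adjusted p = 0.0061). That call was lost without the MYC MTM library of mouse 2 (adjusted p = 0.0845). In control mice 2 rose and 2 fell in TAMs against MTMs, where 0.744% of all genes rose and 1.63% fell. Itgam was among those that fell (-1.56 ± 0.27, adjusted p = 0.016). Its call was lost without the control TAM library of mouse 1 (0.0609) or 3 (0.0564) or the control MTM library of mouse 1 (0.0686). Between MYC and control MTMs 0.618% of all genes passed by limma. None of these lists, the other receptors, ligands, enzymes, Gi signalling and migration, held a gene that passed there. The gate gene Vcam1 did pass by limma (-3.49 ± 0.61, adjusted p = 0.0445). Markers of the other cell types screened had low sums in TAMs, at 2.06 to 8.23 in MYC TAMs against 10.1 to 24.8 in control TAMs for B and plasma cells, 1.17 to 2.44 against 5.4 to 11 for eosinophils and mast cells, 12.3 to 20.9 against 6.78 to 23.3 for fibroblasts and 3.89 to 13.8 against 3.54 to 5.27 for endothelium.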

How the data were processed

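RNA of sorted macrophages was measured by poly(A) stranded sequencing from 500 ng of RNA with integrity numbers of 3.3 to 9.6 and 8 PCR cycles, per the labels' protocols. The deposited table holds 1 log2 value per gene and library. HISAT2, DESeq2 and the mm10 build (GRCm38.p5) are named per the submitters' processing notes, while the counter, its use of strand and the formula of the log2 value are not given in the sources used here. Low deposited values were whole multiples of a unit per library (12118 of 12118 within 0.05), with 1 added before the logarithm, so read numbers were recovered from them, and a non-zero one may be 1 too high if 1 was added before scaling. Counting intervals are exact binomial at 95% and cover counting error only.

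Groups came from the labels, and libraries of a group from different mice. A limma 3.58.1 model (R 4.3.3) with 4 group means and a variance trend was fitted to all 17475 genes and 11 libraries, with two-sided tests, Benjamini-Hochberg adjustment over all genes and a threshold of 0.05, because log2 values cannot enter a count test. It was tested on simulated data. Tables were made with Python 3.11.15, numpy 2.4.6, pandas 2.3.3 and scipy 1.17.1, and figures with matplotlib 3.10.9. Where a list is named, up to 5 genes with the smallest adjusted p per comparison were eligible for naming. The members and lists were chosen with earlier results of these data known.

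TAM and MTM libraries of 5 mice came from the same animal, so mouse numbers pair them. Deviations from the group means correlated at 0.176, 0.211 and 0.0779 within control mice 1, 3 and 5 and at 0.0983 and 0.0379 within MYC mice 2 and 4. Between different mice the values were -0.189 to 0.0134 for control and -0.0983 to 0.0525 for MYC. Centring on group means lowers values between different mice, and the deviations of the 2 MYC MTM libraries mirror each other. These values therefore cannot show how alike the libraries of a mouse are. Alternatives were a mouse block (fixed or random), median centring, quantile normalisation, pseudocounts, low-value filters, library weights, other variance settings, fits of only the groups compared and each library left out. Leaving out MYC TAM mice 4 and 6 together was added after seeing the data. Values of 2 genes are not reported here.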

Additional observations from a re-analysis of the deposited data

Results flagged for a closer look

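The TAM to MTM difference of Cx3cr1 differed between genotypes by a test of the difference itself. It was -2.72 ± 0.25 in MYC mice and 0.51 ± 0.22 in control mice on the log2 scale, a difference of differences of -3.23 ± 0.34 (limma, adjusted p = 0.00551). Within single mice the TAM minus MTM difference was -2.93 and -2.88 in MYC mice 2 and 4, against 0.70, -0.01 and 0.84 in control mice 1, 3 and 5. A fit with a fixed block for each mouse gave -3.42 ± 0.32 (adjusted p = 0.0437). Of 9 measured macrophage markers 2 passed in the same test, both lower, where 0.996% of all genes were lower and 0.24% higher. They were Csf1r (-2.50 ± 0.30, adjusted p = 0.00882) and Emr1 (-1.99 ± 0.38, adjusted p = 0.0436). Cd68 went the other way without passing (1.03 ± 0.23, adjusted p = 0.0753), as did Aif1 (0.76 ± 2.79) and Mertk (0.25 ± 0.57). The part of these genes in the result was not tested.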

How the results depend on the processing

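Of the 7 receptors, 4 passed between MYC and control TAMs, and 2 did when the fit held only the groups compared (2 to 4 with a library left out). In MTMs, MYC against control, 0 passed, against 1 with a pseudocount of 5, 1 with a minimum mean of 1 and 2 with library quality weights (0 to 1 with a library left out). Over all genes, 414 passed between control TAMs and MTMs, against 255 with the mouse as a fixed replicate block, 1032 with quality weights and 196 with only those groups (214 to 537 with a library left out). Between MYC TAMs and MTMs 784 passed, against 476 with the fixed block and 90 with only those groups (163 to 1031). In TAMs, MYC against control, 2778 passed, against 5029 with median centring and 1547 with only those groups (1734 to 2996). In MTMs, MYC against control, 108 passed, against 890 with quality weights and 0 with only those groups (23 to 128). For the difference of differences 216 passed, against 31 with the fixed block, 325 with the random block, 129 with median centring, 327 with a minimum mean of 1, 380 with quality weights and 424 without MYC TAM mice 4 and 6 (21 to 301), and receptors passing numbered 1 to 2 with a library left out. Receptors passing numbered 2 to 3 between MYC TAMs and MTMs and 1 to 1 between control TAMs and MTMs when a library was left out. The cause of these shifts was not tested. The fewest genes passed without control TAM mouse 1, MYC MTM mouse 2, control TAM mouse 3, MYC MTM mouse 4 and MYC MTM mouse 2, in the order of comparisons given. Of 63 named calls outside the receptors, 20 held in every alternative, 30 were lost when the fit held only the groups compared, and Ccr7 between MYC and control TAMs changed sign with median centring (0.01). Among the receptors the block changed the call of Ccrl2 between MYC TAMs and MTMs and no other. A fixed block gives no value for MYC against control, and a fit of only 2 groups gives none for the difference of differences. Depth limits Ccr2 in MYC TAMs, which rests on 12 reads.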

Other observations

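Ccrl2 varied between control mice but hardly within them, a pattern noticed in these data and not tested. It was at 2.77, 3.40 and 4.31 in control TAMs and at 2.80, 3.36 and 4.22 in control MTMs of mice 1, 3 and 5. Of 758 genes whose control mouse means spread by 1 or more, 2 had TAM and MTM values within 0.1 of each other in all 3 mice, Ccrl2 and Smr2. Both limits were set after the values of Ccrl2 were seen, so this count cannot say how rare the pattern is. In MYC mice 2 and 4 the TAM level of Ccrl2 lay above the MTM level by 1.97 and 1.12.

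Ccl6, a ligand of Ccr1, did not follow the groups. It was at 7.43, 8.97 and 0.28 in MYC TAMs of mice 2, 4 and 6 and at 1.39 and 1.44 in MYC MTMs, against 6.95, 4.73 and 0.16 in control TAMs and 1.36, 0.69 and 1.07 in control MTMs of mice 1, 3 and 5. The TAM libraries of mice 6 and 5 were low and the other TAM libraries high, in both genotypes.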
